A study of Apis mellifera ligustica with 12 samples.

Results

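The miRNAs described here are miR-71, miR-2, miR-13a, miR-13b and miR-11 of the honeybee brain. They were taken by name, as every listed id that begins ame-miR-71-, ame-miR-2-, ame-miR-13a-, ame-miR-13b- or ame-miR-11-. The rule found 5 of the 1350 listed ids: ame-miR-71-5p, ame-miR-2-3p, ame-miR-13a-3p, ame-miR-13b-3p and ame-miR-11-3p. All 5 were counted in every library and all 5 passed the filter of at least 10 counts over the libraries, as did 787 of the 1350.

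Small RNA was sequenced from the pooled brains of Apis mellifera ligustica foragers in 12 libraries, 3 for each of 4 groups, to ask how brain miRNAs differ before and during hive treatment with fluvalinate, a pyrethroid acaricide used against Varroa mites. The CK libraries were from untreated bees, and the D10, D20 and D30 libraries were from bees collected 10, 20 and 30 days after fluvalinate strips were first hung in the hive. Each library held the brains of 1 colony and time, with the royal jelly glands and pigment removed, and all bees were adult workers returning to the hive in the morning. CK was taken as the sampling before treatment, and whether it came from the treated or from the control colonies is not stated, so for any difference from CK the treatment, the sampling date and the colony cannot be told apart.

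A miRNA is cut from a folded RNA hairpin, and either side of the hairpin, the 5p or the 3p arm, can yield it. It finds its target messenger RNAs mainly through its seed, the bases near its start. In Drosophila, miR-2, miR-13 and miR-11 share a seed that pairs with a short motif called the K box, and members of that family repress the pro-apoptotic genes reaper, grim and sickle. miR-71 is shared by many invertebrates and is missing from Drosophila. It commonly lies beside miR-2 hairpins in invertebrate genomes, and in Caenorhabditis elegans it is known for its part in lifespan and stress resistance. None of these functions was measured in the present libraries.

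The 5 sequences are given 5′ to 3′ as listed in the deposited files, with T for U and with the seed, bases 2 to 8, in capitals, since the seed divides them into a family of 4 and a separate miRNA.
ame-miR-11-3p: cATCACAGgcagagttctagtt
ame-miR-2-3p: tATCACAGccagctttgatgagc
ame-miR-13b-3p: tATCACAGccatttttgacgatt
ame-miR-13a-3p: tATCACAGccattttgatgag
ame-miR-71-5p: tGAAAGACatgggtagtga

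ame-miR-11-3p, ame-miR-2-3p, ame-miR-13b-3p and ame-miR-13a-3p all carried the seed ATCACAG. ame-miR-2-3p shared its first 11 bases with both miR-13 sequences, and the first substitution from miR-2 to either, counted from 1 at the 5′ end, was G12T. ame-miR-13a-3p and ame-miR-13b-3p were alike over their first 15 bases and first differed by G16T, written from miR-13a to miR-13b. ame-miR-11-3p differed from the other 3 at its first base, T1C from each of them. Position by position, ame-miR-2-3p had 18 of 23 bases in common with ame-miR-13b-3p and 13 of the 21 that could be compared with ame-miR-13a-3p. Reads short enough to fit more than 1 of these would have been assigned by the authors' alignment, which was not repeated.

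The annotation placed 4 of the 5 miRNAs in a single cluster. On linkage group 1 of the Amel_HAv3.1 assembly, 7 hairpin records lay within 2275 bases, from 138173 to 140447. Mir2-2 (138173 to 138256) came first in coordinate order, followed by Mir2-1 (139117 to 139205), Mir13b (139337 to 139415), Mir13a (139678 to 139777), Mir2-3 (139959 to 140058) and Mir71 (140348 to 140447). The seventh record, Mir2b (139122 to 139199), lay inside Mir2-1. All of them lay within the bounds of the protein-coding gene LOC726544 (134890 to 241308), but strand and exon limits were not read, so exonic and intronic positions are not given. The 3 numbered miR-2 hairpins have a single listed 3p product, ame-miR-2-3p, so its level is a sum over up to 3 hairpins. Mir11 lay apart, on linkage group 9 (6850818 to 6850925), within the bounds of the protein-coding gene LOC412770 (6849260 to 6859628).

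**Figure D1:**
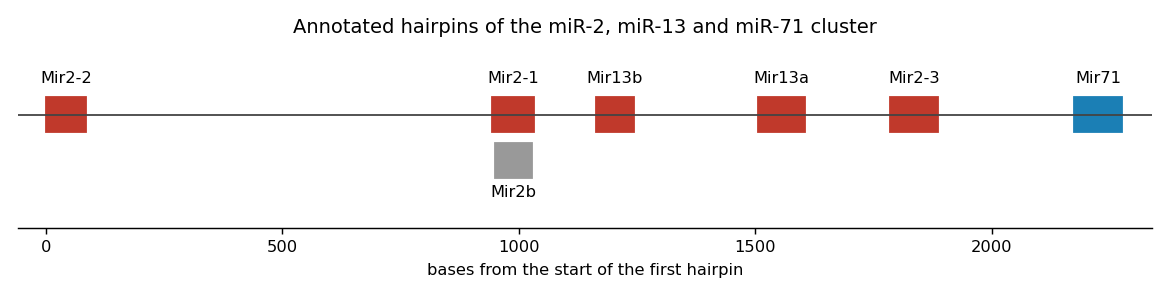
Positions of the 7 annotated hairpins of the miR-2, miR-13 and miR-71 cluster, in bases from the start of the first hairpin (horizontal axis), drawn to scale. Red boxes are miR-2 and miR-13 hairpins, the blue box is Mir71, and the grey box below the line is Mir2b, which lies inside Mir2-1; the whole cluster spans 2275 bases.

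Levels are given as deposited TPM, reads scaled to a common library total without correction for length, since each read is a whole miRNA. Ligation and amplification favour some sequences in small RNA libraries, so levels of different miRNAs and of the 2 arms are compared as read numbers, not as molecules. In a pooled brain, fewer cells holding a miRNA and less of it per cell cannot be told apart. The counts on all listed miRNAs were between 8454313 and 15979901 per library, so that 3 counts corresponded to 0.188 to 0.355 CPM (counts scaled like TPM, but to the sum of listed counts), far below the lowest of the 5. D30-3 counted 837 listed miRNAs and the other libraries 510 to 626. The marker of neurons, ame-miR-124-3p, stood at 18901 ± 4514 TPM (SD, n = 12), in place 8 of all listed miRNAs. The muscle markers ame-miR-1-3p and ame-miR-133-3p were also present, at 1361 ± 411 and 2372 ± 499 TPM.

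ame-miR-11-3p was the most abundant of the 5, in place 11 among all listed miRNAs by mean level. Its levels were 16097, 14871 and 15949 TPM in CK-1, CK-2 and CK-3, 15433, 14044 and 14748 TPM in D10-1, D10-2 and D10-3, 15700, 14854 and 15355 TPM in the D20 libraries and 16775, 15882 and 16234 TPM in the D30 libraries, in the order of their numbers. All 12 values lay within 1.19-fold of each other. D30-1 was the highest and D10-2 the lowest, and the D30 libraries lay above those of D10 and of D20 without overlap while CK overlapped with all 3 later groups.

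ame-miR-2-3p was the next, in place 14. It stood at 9844, 10977 and 9010 TPM in the CK libraries, 10091, 9162 and 10105 TPM in D10, 9265, 9473 and 8908 TPM in D20 and 8415, 10215 and 9197 TPM in D30. CK-2 was the highest library and D30-1 the lowest, 1.30-fold apart, and every pair of groups overlapped.

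ame-miR-13b-3p followed in place 29, with 2573, 2253 and 2220 TPM in CK, 2454, 1509 and 1818 TPM in D10, 1780, 1799 and 1634 TPM in D20 and 1526, 2091 and 1823 TPM in D30. The 3 CK libraries were 3 of the 4 highest. All D20 and all D30 libraries lay below all CK libraries, whereas D10-1 lay among the CK libraries and D10-2 was the lowest of the 12.

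ame-miR-13a-3p, in place 41, stood at 1412, 1307 and 1375 TPM in CK, 1299, 2022 and 1332 TPM in D10, 1354, 1441 and 1347 TPM in D20 and 971, 1519 and 1158 TPM in D30. The CK and D20 libraries lay close together, and the extremes were D10-2 at the top and D30-1 at the bottom, 2.08-fold apart.

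ame-miR-71-5p was the least abundant, in place 65. Its levels were 506, 399 and 478 TPM in CK, 493, 404 and 534 TPM in D10, 478, 547 and 529 TPM in D20 and 424, 464 and 496 TPM in D30. D20-2 was the highest and CK-2 the lowest, 1.37-fold apart, and the groups overlapped throughout.

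**Figure D2:**
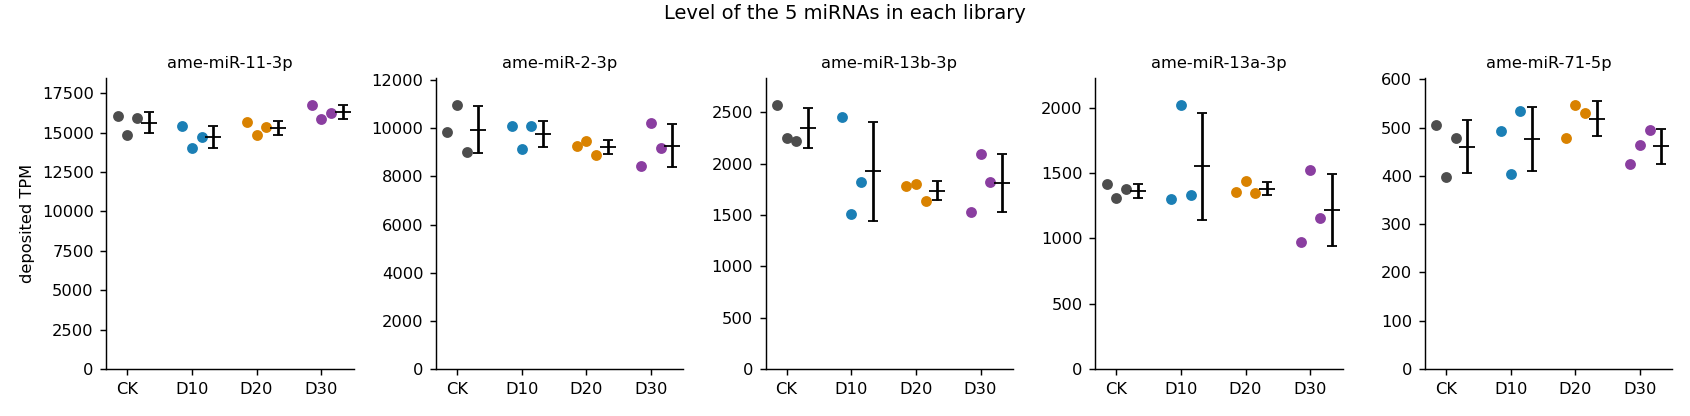
Deposited TPM (vertical axis, from 0, on a scale of its own in each panel) of the 5 miRNAs in CK, D10, D20 and D30 (horizontal axis). Each point is a library, and the black bar beside each group is the mean with its SD (n = 3); the miR-13b points of D20 and D30 all lie below those of CK, and 1 D10 point of miR-13a, D10-2 at 2022 TPM, lies above all the others.

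The order of the 5 levels was nearly the same in every library. ame-miR-11-3p was first and ame-miR-2-3p second in all 12 libraries, and ame-miR-71-5p was last in all 12. ame-miR-13b-3p stood above ame-miR-13a-3p in 11 of 12, and the exception was D10-2. Over the 12 libraries the means and SDs were 15495 ± 765 TPM for miR-11, 9555 ± 708 TPM for miR-2, 1957 ± 355 TPM for miR-13b, 1378 ± 247 TPM for miR-13a and 479 ± 49.3 TPM for miR-71. Only miR-13b and miR-13a, neighbours in this order, had ranges that overlapped (1509 to 2573 and 971 to 2022 TPM).

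The spread of a miRNA was measured by its coefficient of variation, the SD over the 12 libraries divided by the mean. It was 4.94% for ame-miR-11-3p, and none of the 99 miRNAs with a mean of at least 100 TPM had a lower one. ame-miR-2-3p varied by 7.41%, with 3 of the 99 below it, and ame-miR-71-5p by 10.3%, with 6 below it. The longer form miR-71-x, described below, held most reads of that arm and varied more, by 13.4%, in place 20. The miR-13 pair sat in the middle of the range, at 17.9% for miR-13a and 18.1% for miR-13b, against a median of 17.9% over the 99. Counting error adds little at these depths. In the library with the lowest share of miR-71, CK-2, it made up 0.0431% of the counts (95% Wilson interval 0.0420% to 0.0442%, which covers counting error only).

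**Figure D3:**
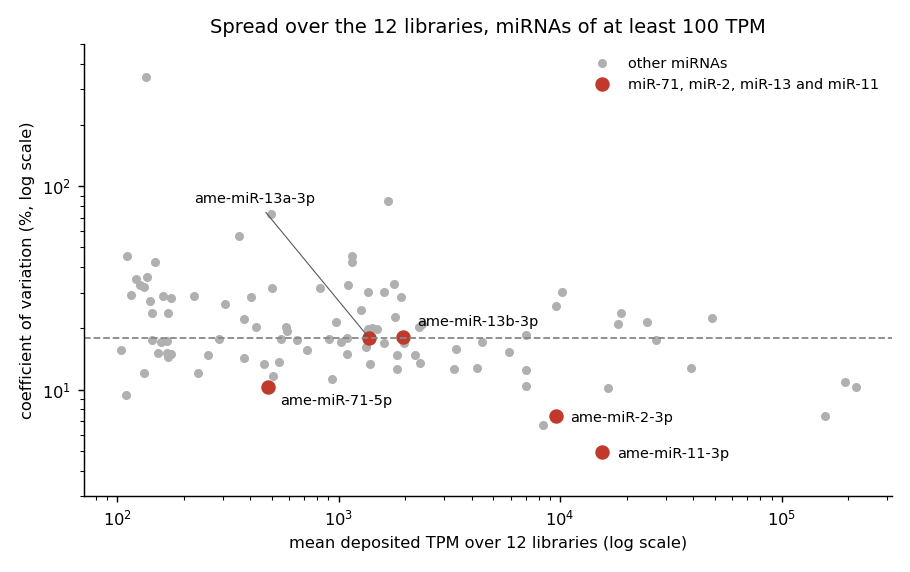
Coefficient of variation in percent (vertical axis, log scale) against mean deposited TPM over 12 libraries (horizontal axis, log scale) for the 99 miRNAs with a mean of at least 100 TPM. Red points are the 5 miRNAs, grey points are all others and the dashed line is the median of the 99; miR-11-3p is the lowest point of all, and both miR-13 points lie on the dashed line.

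The seed ATCACAG was carried by 9 listed entries, the 4 members that share it and 5 scarce ones. Together the 9 stood at 28559 ± 1029 TPM (SD, n = 12), or 3.10% ± 0.116 of all listed counts, from 2.93% in D10-2 to 3.27% in CK-1. miR-11 supplied 54.3% of this family on average, miR-2 33.4%, miR-13b 6.82% and miR-13a 4.84%. Each of the remaining 5 entries supplied under 0.4%. By group the sum was 29486 ± 686 TPM in CK, 28169 ± 1283 TPM at D10, 27792 ± 435 TPM at D20 and 28790 ± 1020 TPM at D30 (SD, n = 3). The share of miR-11 within the family ran from 50.2% to 60.1% over the libraries.

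The 5 scarce carriers of the seed were 2 longer forms of the members and 3 other sequences. ame-miR-2944-3p, in which the first 9 bases are those of ame-miR-2-3p, stood at 19.6 ± 3.89 TPM. Predicted m0195-3p, which shares the same first 9 bases, stood at 4.19 ± 0.879 TPM. miR-2944-y held 29 counts over all libraries. The first 2 are printed to show that honeybee sequences outside the rule carried the same seed and differed from miR-2 after it.
ame-miR-2944-3p: tATCACAGcagtagttacctggt
predicted m0195-3p: tATCACAGcaagagttcctccga

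The listed entries with the seed of miR-71, GAAAGAC, were ame-miR-71-5p and a longer form, miR-71-x, named after the miRNA of other species. The longer form, with 22 bases against 19, begins at the same base and ends 3 bases later. The 3p arm of the hairpin also had 2 listed entries, miR-71-y and the predicted m0021-3p, which differ by 1 base at the end. The 4 are shown together because more reads fell on the forms outside the rule than on ame-miR-71-5p itself.
ame-miR-71-5p: tGAAAGACatgggtagtga
miR-71-x: tGAAAGACatgggtagtgagat
miR-71-y: tCTCACTAtcttgtctttcat
predicted m0021-3p: tCTCACTAtcttgtctttcatc

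miR-71-x stood at 1603, 1133 and 1462 TPM in CK, 1606, 1008 and 1552 TPM in D10, 1394, 1507 and 1381 TPM in D20 and 1249, 1335 and 1326 TPM in D30. D10-2 and CK-2 were its lowest libraries, as they were for ame-miR-71-5p. The longer form held 74.2% of the counts of both 5p entries, between 71.4% and 76.5% in each library. With both entries summed, miR-71 stood at 1859 ± 227 TPM (SD, n = 12), close to the level of miR-13b, against the 479 ± 49.3 TPM of ame-miR-71-5p alone. On the 3p side, m0021-3p held 84.7% of the counts, between 79.8% and 88.1% in each library, and the pair summed to 637 ± 91.8 TPM.

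The division of miR-71 between its 2 lengths was steady over the groups. The 22-base form held 75.1% ± 1.05 of the 5p counts in CK, 74.1% ± 2.58 at D10, 73.4% ± 1.09 at D20 and 73.9% ± 0.982 at D30 (SD, n = 3). For the other members, longer or shifted forms were scarce. miR-2-y, with 2 more bases at the end, held 0.490% of both entries, miR-11-y, also 2 bases longer, 0.669%, and miR-13-y, which begins 1 base before ame-miR-13b-3p, 0.933%. The predicted m0138-3p, which begins 3 bases before ame-miR-11-3p, held 0.0665%. A start moved by 1 base moves the seed, and for miR-13-y it read TATCACA. Thus 1 of the 5 members, miR-71, had most of its reads listed under another id, and the other 4 did not.

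**Figure D4:**
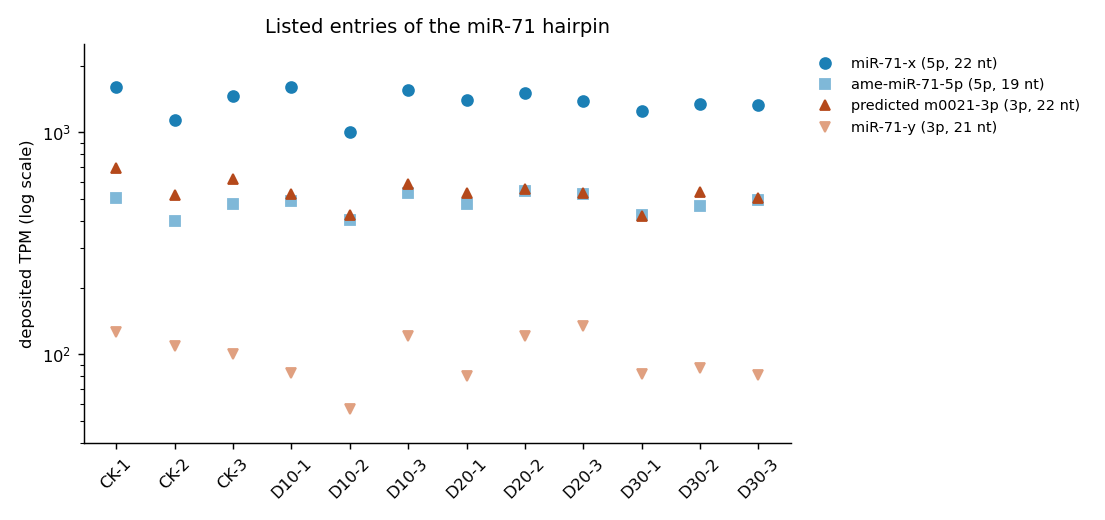
Deposited TPM (vertical axis, log scale) of the 4 listed entries of the miR-71 hairpin in each of the 12 libraries (horizontal axis). Circles are miR-71-x and squares ame-miR-71-5p, both from the 5p arm, and upward and downward triangles are m0021-3p and miR-71-y from the 3p arm; in every library miR-71-x is the highest and miR-71-y the lowest, and D10-2 is the lowest library for miR-71-x and miR-71-y.

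The miRNAs differed widely in how far the listed entry of 1 arm outweighed that of the other. For miR-2 the 3p entry exceeded the 5p entry miR-2-x by a mean of 4847-fold (2204-fold to 8434-fold over the libraries), with miR-2-x at only 2.13 ± 0.734 TPM. The 3p entry of miR-2 sums over up to 3 hairpins and miR-2-x is 1 listed sequence, so this is not the ratio of a single hairpin. For miR-11 the 3p arm exceeded miR-11-x, at 15.8 ± 2.16 TPM, by 996-fold (739-fold to 1302-fold). For miR-13 the excess was far smaller: ame-miR-13a-3p exceeded the 5p entry miR-13-x, at 290 ± 51.6 TPM, by 4.96-fold (2.59-fold to 8.25-fold). For miR-71 it was the 5p arm that led, by 5.08-fold (3.65-fold to 7.08-fold) between ame-miR-71-5p and miR-71-y, and by 2.94-fold (2.42-fold to 3.45-fold) with both lengths of each arm summed.

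miR-13-x was set against miR-13a, since it paired better with that arm. In a predicted duplex it formed 15 pairs with ame-miR-13a-3p at -21.7 kcal/mol and 13 pairs with ame-miR-13b-3p at -15.7 kcal/mol. The 5p entries of the miR-2 and miR-13 hairpins themselves shared a seed, CATCAAA. They are printed to show it, with that of miR-11, which differs.
miR-13-x: aCATCAAAttggttgtggaat
miR-2-x: cCATCAAAgttggtttgtcat
miR-11-x: tGGAGCTCtggctgtgacttgtg

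The entry ame-miR-2b-5p, which the rule leaves out, was the reverse complement of ame-miR-2-3p over 21 bases, as printed here with the complementary part in capitals.
ame-miR-2b-5p: TCATCAAAGCTGGCTGTGATAtga
ame-miR-2-3p: TATCACAGCCAGCTTTGATGAgc

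Since Mir2b lies inside Mir2-1, both entries can be read from opposite strands of the same bases. ame-miR-2b-5p held 181 counts over all 12 libraries, at 1.09 ± 0.419 TPM, against 1594098 counts of ame-miR-2-3p. ame-miR-2b-5p and miR-2-x also share the seed CATCAAA.

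Whether a level differed between groups was tested on the counts of the 787 miRNAs that passed the filter, with the quasi-likelihood test of edgeR and Benjamini-Hochberg adjustment over all of them within a comparison. A miRNA was called when the adjusted p was under 0.05 and the absolute log2 fold change above 1. In D10, D20 and D30 against CK, 0 of the 5 miRNAs were called in each comparison, and the share called over all 787 was 0.0% in each. Between the treated days, D20 against D10, D30 against D10 and D30 against D20, 0 of 5 were again called, with 0.0% called over all 787 in each. None of the 30 differences of the members reached an unadjusted p of 0.05 (lowest 0.0606). Over all 787 miRNAs, 6.1%, 4.07% and 6.86% did in D10, D20 and D30 against CK, and 6.1%, 11.2% and 7.62% did in D20 against D10, D30 against D10 and D30 against D20. DESeq2 called 0 to 6 of all miRNAs in a comparison, edgeR's classic test 0 to 8, and neither called any of the 5. With edgeR and the same thresholds, the paper did report differentially expressed miRNAs between its time points. Most of those it checked by qRT-PCR went the same way. The absence of calls over all 787 was not shared by every test and setting. limma on log2(TPM + 1) also called 0 in every comparison. With a term for read quality, the same edgeR test called up to 66 miRNAs in a comparison. A test of all 4 groups together in edgeR also called 0 of the 5, with adjusted p between 0.532 for miR-13b and 0.981 for miR-2.

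The intervals of these differences were narrow. The 30 log2 differences ran from -0.37 to 0.26, and all 30 of their 95% intervals lay within a log2 change of 1 in either direction. The lowest bound was -0.81 and the highest 0.65, which are changes of 0.570-fold and 1.57-fold. Over the 5 members the median absolute log2 difference was 0.08, 0.10 and 0.10 in D10, D20 and D30 against CK. Over all 787 miRNAs it was 0.32, 0.25 and 0.48, and over the 99 with at least 100 TPM 0.21, 0.16 and 0.16. In the comparisons of D30 the median difference over all 787 was itself shifted upward, by 0.25 against CK, 0.27 against D10 and 0.25 against D20 on the log2 scale. The p-values measure the spread between pooled samples of single colonies. The labels do not give the colony of a library, so the same colonies may have been sampled again at later times. The tests, here and of the ratios below, treated the libraries as independent.

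**Figure D5:**
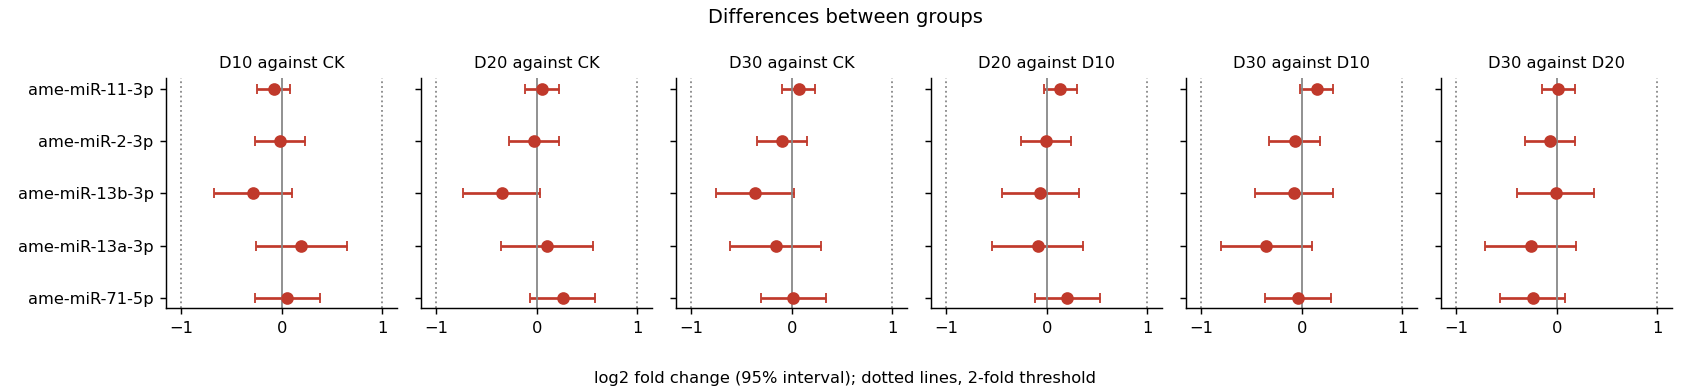
Log2 fold change of the 5 miRNAs (rows) in the 6 comparisons of 2 groups (panels), from edgeR's fit of all 12 libraries. Points are estimates and bars their 95% intervals, and the dotted lines mark a 2-fold change in either direction; all 30 intervals lie between the dotted lines, and those of miR-11-3p are the shortest.

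miR-13b had the largest differences from CK. Its mean level was 2349 ± 194.9 TPM in CK, 1927 ± 482 TPM at D10, 1737 ± 90.2 TPM at D20 and 1813 ± 283 TPM at D30 (SD, n = 3). In edgeR's fit the log2 difference from CK was -0.29 at D10 (SE 0.17, adjusted p = 0.912), -0.35 at D20 (SE 0.17, adjusted p = 1) and -0.37 at D30 (SE 0.17, adjusted p = 0.516). It was 1 of the 5 members whose libraries all lay below CK in D20, where 7.75% of all 787 miRNAs did so, and the same held in D30, where 4.45% did so. Among the 99 miRNAs of at least 100 TPM the shares below CK without overlap were 16.2% in D20 and 8.08% in D30. The 3 comparisons share the CK libraries and are not independent of each other. Without CK-1 the D20 difference shrank to -0.23, and without D30-1 the D30 difference shrank to -0.24, and the D10 difference shrank to -0.14 without D10-2 and likewise without CK-1.

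The libraries also fell into 2 classes by the share of high-quality reads, which the groups held unequally. Within the libraries of higher read quality, the log2 difference of miR-13b from CK was -0.60 in D10 (2 libraries against 1), -0.48 in D20 (3 against 1) and -0.38 in D30 (1 against 1). Within those of lower read quality it was 0.10 in D10 (1 against 2) and -0.36 in D30 (2 against 2), and D20 had no library of that class. With arms of 1 to 3 libraries these values carry no test, and the part of read quality in the difference was not tested.

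Markers of other cells were set beside miR-13b, and their part in its level was not tested. The muscle marker ame-miR-1-3p stood at 1866 ± 248 TPM in CK, 1469 ± 327 TPM at D10, 1067 ± 180 TPM at D20 and 1044 ± 215 TPM at D30, and like miR-13b lay below CK without overlap in D20 and D30. The second muscle marker, ame-miR-133-3p, did not, at 2332 ± 237 TPM in CK and 2798 ± 829 TPM at D30. Of the photoreceptor markers, ame-miR-7-5p was lower than in CK without overlap in all 3 treated groups (2897 ± 175 TPM in CK, 1930 ± 250 at D10, 2203 ± 516 at D20 and 2185 ± 260 at D30), and ame-miR-210-3p was higher without overlap in D20 and D30, where 4.32% and 5.84% of all 787 were. None of the 5 markers was called in any comparison.

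The other 4 members differed less from CK. The log2 differences of ame-miR-71-5p were 0.05 in D10, 0.26 (SE 0.15) in D20 and 0.01 in D30, and the unadjusted p of the D20 value in edgeR was 0.109. The D20 value of the longer and more abundant miR-71-x was 0.12 (SE 0.18), and that of the 5p entries summed by their first 18 bases was 0.11. For ame-miR-2-3p they were -0.02, -0.03 and -0.10 (SE 0.11 each), and for ame-miR-11-3p -0.08, 0.05 and 0.07 (SE 0.07 each), so the estimates were smaller than their errors except for that of miR-11 in D10, which was about as large. For ame-miR-13a-3p they were 0.19, 0.10 and -0.16 (SE 0.20 each). The D10 value of miR-13a rested on D10-2 and was -0.05 without it. Between treated days, the largest difference was that of miR-13a in D30 against D10, -0.36 (SE 0.20, adjusted p = 0.438 in edgeR), which was -0.11 without D10-2. In deposited TPM, miR-11 lay higher in D30 than in D10 without overlap, where 7.62% of all 787 miRNAs lay higher in that way. It also lay higher in D30 than in D20 without overlap, where 6.61% did. In edgeR's fit, which scales the libraries otherwise, the log2 difference was 0.15 against D10 (SE 0.07, adjusted p = 0.438). Against D20 it was 0.02 (adjusted p = 0.982) and changed sign under some alternatives.

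Ratios within a library do not depend on its depth or scaling, and 8 were compared between the groups. Of these, 4 were between the 5p and 3p entries of a miRNA and 4 between members of the cluster. An exact permutation test over all 369600 assignments of the 12 libraries to 4 groups of 3, two-sided by construction, gave p between 0.138 and 0.649 and adjusted p between 0.471 and 0.649 over the 8. None of the 8 passed this test of the 4 groups together. Pairs of groups were compared too, where 3 libraries against 3 cannot give an exact p below 0.1, and 6 of the 48 pairs reached that value (adjusted p = 0.686 over the 48). With both lengths of the miR-71 arms summed, the log2 ratio of 5p to 3p was 1.36 ± 0.08 in CK, 1.63 ± 0.13 at D10, 1.57 ± 0.05 at D20 and 1.63 ± 0.11 at D30, with an adjusted p of 0.190 in the same exact test.

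Within the cluster, miR-2 exceeded ame-miR-71-5p by a mean of 20.2-fold (16.8-fold to 27.5-fold over the libraries), miR-13a by 7.10-fold (4.53-fold to 8.67-fold) and miR-13b by 4.99-fold (3.83-fold to 6.07-fold). With the longer forms included, the excess over miR-71 was 5.24-fold (4.64-fold to 7.20-fold), close to that over miR-13b. The ratio of miR-13b to miR-13a had a mean of 1.46, from 0.747 in D10-2 to 1.89 in D10-1, so its extremes came from the same group. By group its log2 value was 0.78 ± 0.09 in CK, 0.31 ± 0.68 at D10, 0.33 ± 0.06 at D20 and 0.59 ± 0.11 at D30 (SD, n = 3; adjusted p = 0.548 in the exact permutation test). The libraries of CK (0.69 to 0.87), D30 (0.46 to 0.65) and D20 (0.28 to 0.39) did not overlap in this log2 ratio, each pair at the smallest exact p of 0.1, while those of D10 ran from -0.42 to 0.92. The log2 ratio of miR-13b to miR-2 likewise lay lower without overlap in D20 (by -0.33) and D30 (by -0.28) than in CK, at the same exact p. The sixth pair was the ratio of ame-miR-71-5p to miR-71-y, higher in D30 than in CK by 0.43. Without D10-1 the adjusted p of the 4-group test of miR-13b to miR-13a was 0.0826, the lowest for any ratio when a library was left out.

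How closely 2 levels moved together was described by the SD of their log2 ratio over the 12 libraries, where a small SD means a steady ratio. The 2 lengths of miR-71-5p had an SD of 0.11, and miR-71-x and m0021-3p from opposite arms 0.14. Unrelated levels with the same spreads would have given 0.25 and 0.29. Between different hairpins of the cluster, the ratios of miR-71-5p to miR-2-3p (0.19, against 0.18 if unrelated) and of miR-13a to miR-13b (0.36 against 0.36) were no steadier than for unrelated levels. They were steadier for miR-2 to miR-13a (0.24 against 0.27) and for miR-2 to miR-13b (0.21 against 0.28), and more so between miR-13b and the main forms of miR-71, m0021-3p (0.18 against 0.33) and miR-71-x (0.23 against 0.33). For miR-13a with miR-71-x (0.36 against 0.32), m0021-3p (0.31 against 0.32) and miR-71-5p (0.30 against 0.29) the ratio was hardly or no steadier. It was slightly steadier for miR-2 with miR-71-x (0.22 against 0.23) and m0021-3p (0.19 against 0.23). The same held for miR-13b with miR-71-5p (0.28 against 0.30). These are descriptions over 12 libraries that share a common total, not tests.

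Among 93 candidates with a mean of at least 100 TPM, the closest to ame-miR-71-5p were miR-71-x (0.11), ame-miR-276-3p (0.14) and ame-miR-100-5p (0.15). The closest to ame-miR-2-3p were ame-miR-276-3p (0.13), ame-miR-277-3p (0.14) and ame-miR-100-5p (0.15), and 11 candidates were closer to it than its cluster neighbour ame-miR-71-5p was. ame-miR-13b-3p was closest to ame-miR-277-3p (0.14), followed by m0021-3p and miR-276-y (0.18 each). ame-miR-11-3p was closest to ame-miR-100-5p (0.07), ame-miR-184-3p (0.12) and ame-miR-6043-3p (0.13). miR-100-5p and miR-184-3p were themselves steady, with coefficients of variation of 6.71% and 7.39%. No such list was made for ame-miR-13a-3p, since the rule took only the more abundant of the miR-13 pair. The median SD over the candidates was 0.33 for miR-71-5p, 0.28 for miR-2-3p, 0.37 for miR-13b-3p and 0.27 for miR-11-3p.

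The library D10-2 stood apart for several members. It held the highest level of miR-13a and the lowest of miR-13b, miR-11 and miR-71-x. It also held the highest level of the neuronal marker ame-miR-124-3p (31131 TPM) and of ame-bantam-3p (18805 TPM, against a mean of 10151 ± 3055 TPM over the 12). What moved these together was not tested.

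Other miRNAs known in Drosophila to limit cell death were described beside the seed family, as bantam and miR-263a/b repress hid there and miR-14 restrains death. None of these 4 was called in any comparison with CK, where 0.0% of all 787 were. ame-miR-14-3p stood at 24592 ± 5320 TPM, in place 7, and ame-miR-263b-5p at 6988 ± 727 TPM, both with wider relative spread than miR-11 and miR-2. The log2 difference of ame-miR-14-3p from CK was -0.43 in D10 (SE 0.19, adjusted p = 0.818 in edgeR), with overlapping libraries. It was 0.04 in D20 and 0.11 in D30. For ame-bantam-3p the differences were 0.20, -0.07 and -0.09 (SE 0.34 each). ame-miR-263b-5p lay below CK without overlap in D10, D20 and D30, with log2 differences of -0.19, -0.19 and -0.20 (SE 0.11 each; adjusted p = 0.912, 1 and 0.516 in edgeR). At D10 5.59% of all 787 miRNAs lay below CK in that way and 3.94% above it. ame-miR-263a-5p, at 580 ± 117 TPM, was higher in D10 than in CK without overlap by 0.43 (SE 0.20, adjusted p = 0.844 in edgeR) and not in D20 or D30.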

How the data were processed

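Small RNA of 12 honeybee brain libraries was analysed as deposited. The authors filtered reads by quality, linkers, insert length, polyA and tag frequency, took out other classes of small RNA and whatever mapped to an exon, intron or repeat, and used Bowtie to match the rest to honeybee miRNAs and to miRNAs of other species (names ending in x or y). MIREAP gave the predicted hairpins. The authors deposited a raw count of reads per miRNA for each library. The authors also deposited TPM, the count scaled to a library total larger than the listed sum (the listed TPM of a library sum to 914748 to 927064), with 0 written as 0.01.

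Counts were tested with edgeR 4.0.16 in R 4.3.3 (TMM, quasi-likelihood F test, 1 fit of 12 libraries with 4 group means) over 787 miRNAs of at least 10 counts; called means adjusted p under 0.05 and absolute log2 fold change above 1, the study's thresholds. The study's methods name edgeR but no test or filter. Log2 ratios (0.5 count added) were tested by exact permutation, and duplexes were predicted with ViennaRNA 2.7.2. Python 3.11.15, numpy 2.4.6 and pandas 2.3.3 were used. DESeq2 1.42.0, limma 3.58.1 on log2(TPM + 1), edgeR's classic test, other scalings and filters, a sum of entries with the same first 18 bases, a read-quality term, a block for the replicate number and fits without each library in turn were alternatives. The edgeR and permutation steps were tested on simulated data.

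Named are the 5 members, all other entries of these miRNAs by name or seed, the 3 miRNAs of at least 100 TPM with the steadiest ratio to miR-71-5p, miR-11-3p, miR-2-3p or the more abundant miR-13, the Drosophila cell-death list and the cell markers; miR-2944, m0195-3p, m0020-5p, m0021-3p and m0138-3p were added for their sequences. The members and lists were chosen with earlier results of these data known. Hairpin positions were read from RefSeq's gene table for Amel_HAv3.1, which is also the study's assembly. Replicate libraries differed by far more than sampling noise (chi-square per degree of freedom 48.1 or more), so all 12 were kept. The read-quality classes are from the study's supplement. Wilson intervals and 3-count floors cover counting error only.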

Additional observations from a re-analysis of the deposited data

How the results depend on the processing

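Of the 5 miRNAs, 0 were called in each comparison under all 26 alternatives, and the lowest adjusted p of a member was 0.207. Under some alternative 18 of 30 differences changed sign, and the values after the change were -0.11 to 0.15. Among them was that of ame-miR-13a-3p in D10 against CK, which was 0.19 in the main fit. For ame-miR-71-5p, D10 against CK became -0.0026 with entries of the same first 18 bases summed. Its D30 against CK became -0.11 so summed, -0.0046 with RLE, -0.00055 with filterByExpr, -0.026 with 2 groups or the classic test and -0.0044 with DESeq2, and its D30 against D10 became 0.0065 with the quality term. For ame-miR-2-3p, D10 against CK became 0.017 with RLE, 2 groups, the classic test or DESeq2 and 0.058 unfiltered, D20 against CK 0.051 unfiltered, and D30 against D20 0.015 with library totals, 0.0094 with the TPM total, 0.0014 with honeybee miRNAs only and 0.0054 with limma. ame-miR-13a-3p in D20 against CK became -0.015 with the quality term. For ame-miR-13b-3p, D30 against D20 became 0.067 with library totals, 0.062 with the TPM total, 0.014 with filterByExpr, 0.052 with honeybee miRNAs only and 0.051 with limma. For ame-miR-11-3p, D20 against CK became -0.036 with library totals, -0.031 with the TPM total or limma and -0.024 with honeybee miRNAs only, and D30 against D20 -0.052 unfiltered and -0.018 with 2 groups or the classic test. The cause was not tested.

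With 1 library left out, ame-miR-2-3p ranged from -0.023 to 0.15 in D10 against CK, -0.082 to 0.14 in D20 against CK, -0.16 to 0.0054 in D30 against CK and -0.11 to 0.018 in D20 against D10. ame-miR-11-3p ranged from -0.083 to 0.011 in D10 against CK, from -5.1e-05 to 0.11 in D30 against CK and from -0.061 to 0.056 in D30 against D20, and ame-miR-71-5p from -0.11 to 0.092 in D30 against CK. ame-miR-13a-3p ranged from -0.052 to 0.38 in D10 against CK and -0.20 to 0.15 in D20 against D10, and ame-miR-13b-3p from -0.21 to 0.14 in D20 against D10, -0.23 to 0.058 in D30 against D10 and -0.099 to 0.036 in D30 against D20. The lowest adjusted p of a ratio was 0.0826, in the exact permutation test.

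Counts over all miRNAs did depend on the setting. In D10, D20 and D30 against CK and D20 against D10, D30 against D10 and D30 against D20, DESeq2 called 6, 2, 1, 5, 2 and 0, the classic test 8, 6, 2, 8, 0 and 1, and 2 groups alone 7, 3, 0, 5, 0 and 0. The quality term called 24 and 66 in D30 against D10 and D30 against D20, and honeybee miRNAs alone 1 and 2 in D20 against CK and D20 against D10. Leaving out D30-3 called 6 in D10 against CK and in D20 against D10. Libraries of equal replicate number were no more alike than others (median correlation of 18 pairs -0.0253, 4 above 0.1). In 36 pairs of different number the median was 0.0045, with 10 above 0.1. Whether the number stands for a colony is not stated, so this could not show whether libraries are paired by colony. With the number as a replicate block, 0 members and 0 to 1 of all miRNAs were called, and the ratios had adjusted p between 0.439 and 0.667 by exact permutation. Each member had 4652 or more counts in every library, so counting error was small beside the spread between libraries.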
